A study of Homo sapiens with 4 samples.

Results

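Heat shock proteins and chaperones are the proteins that fold, refold and hold other proteins. Their transcripts were examined among RNAs bound by YTHDF1, a cytoplasmic reader of N6-methyladenosine (m6A), in SNU638, a line of human gastric cancer cells in long-standing use. All 4 RNA immunoprecipitation sequencing (RIP-seq) libraries came from cells that overexpressed YTHDF1, spent 24 h without serum and were then exposed for 24 h to IFN-γ, the interferon of activated T and NK cells, at 10 ng/ml. The immunoprecipitate group (IP-YTHDF1) and the Input group held 2 biological replicates each, so the groups differed by the pull-down and not by treatment. Per the methods, the pull-down used an antibody to the FLAG tag or IgG as its counterpart, so the values describe an overexpressed, tagged reader in 1 cell line. The 4 libraries include no IgG pull-down by their labels, so the windows are set against Input only, and RNA captured non-specifically cannot be told apart from RNA bound by YTHDF1. No library without IFN-γ or without overexpression was included. Members were the protein-coding genes of the deposited table of bound windows whose symbols begin with HSPA, HSPB, DNAJA, DNAJB, DNAJC, CCT or BAG and a digit, or with HSP90, together with HSPD1, HSPE1, HSPH1 and TCP1. This gave 42 gene identifiers with 132 windows, of 7550 genes with 26819 windows in all. They carried 41 symbols, because HSPA14 was listed under 2 identifiers, which were kept apart.

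HSP70 proteins bind exposed stretches of unfolded clients in a cycle driven by ATP. J-domain proteins of the DNAJ families bring clients to HSP70 and start ATP hydrolysis, and HSP110 and BAG proteins release the nucleotide so that the client is freed. HSP90 finishes the folding of many kinases and receptors, the CCT ring (TCP1 and the CCT subunits) folds actin and tubulin, and HSPD1 with its lid HSPE1 folds proteins inside mitochondria. Gastric cancer cells, like other cancer cells, often contain large amounts of these proteins.

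Each window was 50 bp long. It had a single set of values, with no library named: a signal value, a p-value and a q-value, the last at most 0.05. Whether a window rests on both replicates or a single one is not known. The signal value is a score from the authors with no stated scale, and it is used here only to order and describe windows. The p-values below are those that the authors' table gives for a window. Values of single libraries were not analysed here, so sequencing depth and replicate spread are unknown and no difference below was tested. At most 9 windows were listed per gene, so 9 means 9 or more. A gene with no listed window may be unbound, too weakly expressed to test, or below the threshold, and these cannot be told apart.

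The bases of a few windows are shown first, because a reader of m6A is known to favour the DRACH context, in which D is A, G or T, R is A or G, and H is A, C or T. The promoter table of RefSeq (GRCh38.p14) reaches 50 bases past each gene start and covered at least 30 bases of 11 of the 132 windows. The strongest windows of 7 genes were among them, and these are printed in the transcribed direction, with DRACH matches in capitals. The stretches lie at chr7:108569968-108569997 (DNAJB9, plus strand), chr17:42017406-42017435 (DNAJC7, minus), chr11:123062110-123062139 (HSPA8, minus), chr6:44247117-44247146 (HSP90AB1, plus), chr5:138571007-138571056 (HSPA9, minus), chr5:34929760-34929789 (DNAJC21, plus) and chr12:55829581-55829610 (DNAJC14, minus). All but that of HSPA9 belong to windows within 226 bp of an annotated start. The HSPA9 stretch lies inside the gene, 4370 bp from the nearest start. It was read from the promoter entry of a neighbouring locus, as were those of DNAJB9, DNAJC7 and DNAJC21.
DNAJB9: acgaccgagattagggtgcgtgccagctcc
DNAJC7: ctctggtcccggcggtaagatggcggctgc
HSPA8: ggtctcattGAACTcgcctgcagctcttgg
HSP90AB1: gcgcagtgttgGGACTgtctgggtatcgga
HSPA9: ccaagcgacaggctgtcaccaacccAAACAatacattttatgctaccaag
DNAJC21: ccgggcccgggccccgaccccgtcccgggc
DNAJC14: ccgcggggacggaaggcggaagcagagcgt

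The windows of HSPA8, HSP90AB1 and HSPA9 held a match in the transcribed direction and those of DNAJB9, DNAJC7, DNAJC21 and DNAJC14 did not. Among the 10 windows covered over all 50 bases, 3 held a match (30%), beside 9949 of the first 50 transcribed bases of 22199 coding gene starts (44.8%). The 3 were those of HSPA8 and HSPA9 and a weaker window of HSPD1 (GGACA, not printed), as that of HSP90AB1 was covered over 34 bases. On the opposite strand the shares were 50% (5 of 10) and 48.4%. A match is only these letters, and no methylation was measured in this table. The 10 windows are those the promoter sequences happened to reach, mostly beside gene starts, and are not a sample of all member windows. Their share was not tested against that of the gene starts. From a motif search over its RIP-seq, the study reports that YTHDF1 bound DRACH preferentially. Of the remaining members, CCT4 and HSPD1 each had a weaker window covered over 30 bases or more. Windows of the others were not covered to that length.

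Chaperone genes were listed more often than coding genes in general, and the HSP70 family led. Of 88 RefSeq protein-coding genes that fit the symbol rule, 41 had at least 1 window (46.6%, Wilson 95% interval 36.5% to 56.9%, counting error only), beside 31.8% of all 20056 RefSeq protein-coding genes. The interval treats the genes as independent and is no test of that difference, because they were chosen with earlier results of these data known. Of 6674 coding symbols with a window, 6370 matched RefSeq, and the rest do not count as listed. Every member symbol matched, so this can lower the share of all coding genes but not that of members. Other abundant genes of protein homeostasis had shares of the same order. Windows were listed for 24 of 48 proteasome genes (50%) and for 42 of 87 ribosomal protein genes (48.3%). The share is therefore not particular to chaperones, and the expression of these genes was not measured here.

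**Figure D1:**
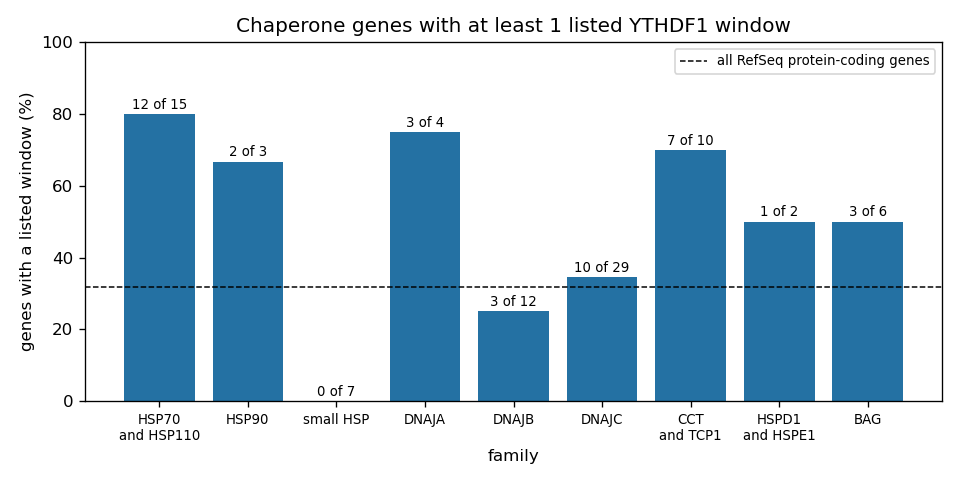
Share of RefSeq protein-coding genes of each chaperone family with at least 1 listed window (y axis, %), with the counts above the bars and the share over all coding genes, 31.8%, as a dashed line. The HSP70 and HSP110 bar is the highest (12 of 15), DNAJB lies under the line (3 of 12) and no small heat shock protein gene was listed.

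The families differed in how many of their genes were listed. In the HSP70 and HSP110 family 12 of 15 genes had windows, and HSPA2, HSPA6 and HSPA12B did not. Both cytosolic HSP90 genes were listed, but not HSP90B1, the HSP90 of the endoplasmic reticulum (ER). Every gene of the CCT ring other than CCT2 was listed, whereas the paralogues CCT6B and CCT8L2 were not. DNAJA contributed 3 of 4 genes (all but DNAJA4), DNAJB 3 of 12 and DNAJC 10 of 29. BAG1, BAG3 and BAG4 had windows, and BAG2, BAG5 and BAG6 had none. HSPD1 was listed without HSPE1, its co-chaperonin.

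None of the 7 small heat shock protein genes (HSPB1, HSPB2, HSPB3, HSPB6, HSPB7, HSPB8 and HSPB9) had a window. These encode ATP-independent holdases that keep clients soluble. The DNAJB genes without a window were DNAJB2, DNAJB4, DNAJB5, DNAJB6, DNAJB7, DNAJB8, DNAJB11, DNAJB13 and DNAJB14. The 19 DNAJC genes without one were DNAJC1, DNAJC2, DNAJC4, DNAJC5B, DNAJC5G, DNAJC6, DNAJC8, DNAJC12, DNAJC13, DNAJC15, DNAJC17, DNAJC18, DNAJC19, DNAJC24, DNAJC25, DNAJC25-GNG10, DNAJC27, DNAJC28 and DNAJC30.

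Among listed genes, chaperones were not stronger than other coding genes. The strongest window of a member had a median signal value of 2.22 (25th to 75th percentile 1.81 to 2.45), and that of all 6679 coding genes had a median of 2.23. A strongest value of 2 or more was found in 27 of 42 members (64.3%), beside 69.5% of coding genes. Members had a median of 2 windows, and coding genes a median of 3. A single window was listed for 12 members (28.6%, background 29.0%), and 3 members stood at the limit of 9 windows (7.14%, background 12.8%). The family medians ran from 1.64 in the CCT ring to 2.41 in HSP70 and HSP110, with DNAJA and DNAJC both at 2.24.

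**Figure D2:**
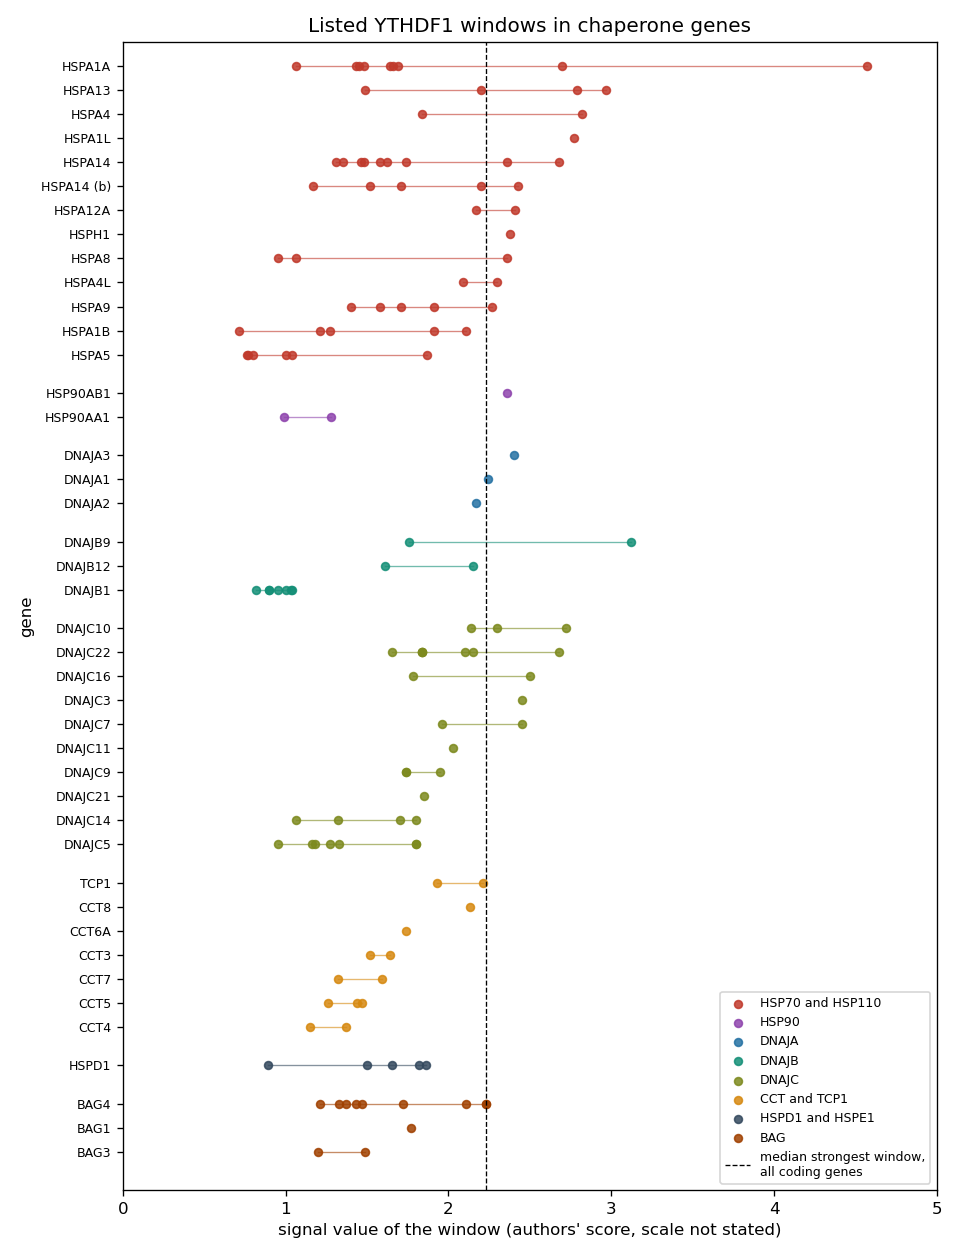
Signal value (x axis, the authors' score) of each of the 132 listed windows, with 1 line per gene and the families in colours. HSPA14 (b) is the second identifier, and the dashed line is the median strongest window of all coding genes, 2.23. HSPA1A reached 4.57, while the 7 windows of DNAJB1 lay between 0.82 and 1.04.

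The highest value of all members belonged to HSPA1A, one of the stress-inducible cytosolic HSP70 genes, which has no intron. Its window at chr6:31815944-31815993 had a signal value of 4.57, was ranked 38 in the whole table, and exceeded the strongest window of 99.9% of coding genes. The adjacent window had 2.7, and both p-values were listed as 0. The remaining windows of HSPA1A had 1.06, 1.66, 1.45 and 1.43 upstream of this pair and 1.69, 1.64 and 1.48 downstream of it. HSPA1A was thus the member with both the highest score and the largest gap between its best window and its median window (1.64).

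HSPA1B, a near-identical copy of HSPA1A, shared 1 window position with it and had the other 4 of its windows elsewhere in the gene. Counted from the start of each gene, those of HSPA1A lay at bases 152 to 501 and 1202 to 1401 of 2400. Those of HSPA1B lay at bases 1352 to 1401 and 1552 to 1751 of 2517. The shared position, bases 1352 to 1401, had 1.48 in HSPA1A and 0.71 in HSPA1B. In 5′ to 3′ order the HSPA1B values were 0.71, 1.21, 1.91, 2.11 and 1.27, and the p-values of 1.91 and 2.11 were listed as 0. The strong stretch of HSPA1A at bases 402 to 501 thus had no counterpart among the listed windows of HSPA1B.

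The opposite gap cannot be read, because HSPA1A stood at the limit of 9 windows. Windows are numbered along the chromosome, and the middle of the last listed one lay at 57.3% of the gene. From the q-values, at least 12 of 47 tested windows of HSPA1A passed, so at least 3 were left out, and at least 2 of those had a p-value under 0.00095. Each of the 5 HSPA1B windows also overlapped windows of the lncRNA AL671762.1 on the same strand, whose 2 highest values there were 2.40 and 2.52. How reads that match several of these genes were assigned is not given in the sources used here, so the split between HSPA1A, HSPA1B and AL671762.1 is uncertain.

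**Figure D3:**
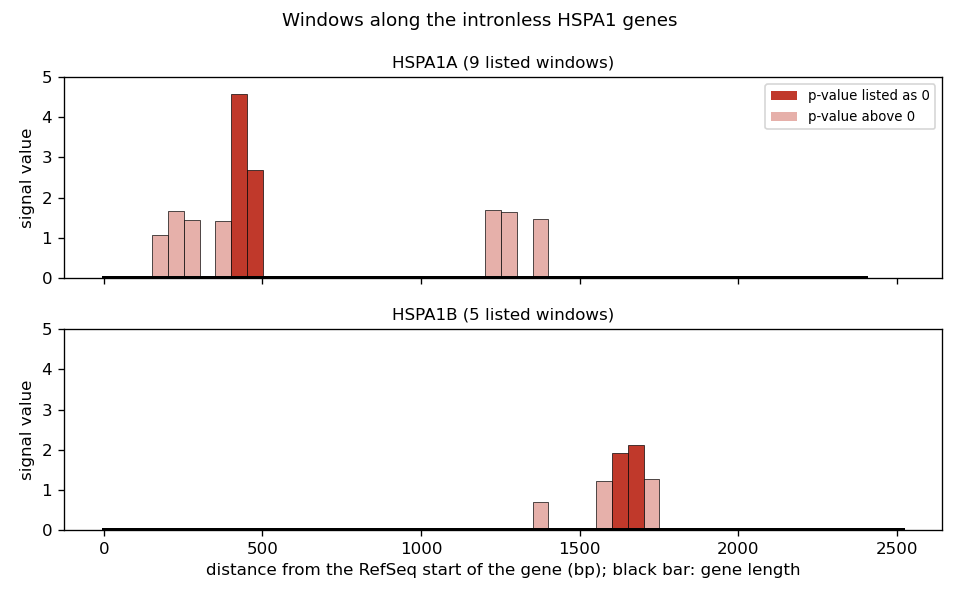
Signal values (y axis, the authors' score) of the listed windows along HSPA1A and HSPA1B, by distance from the start of each gene in bp (x axis), with the black bar as gene length and dark bars for p-values listed as 0. The peak of HSPA1A (4.57 at bases 402 to 451) and that of HSPA1B (2.11 at bases 1652 to 1701) lay at different places, and the limit of 9 windows was reached at base 1401 of HSPA1A.

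The third gene of the same cluster, HSPA1L, an HSP70 known mainly from testis, lies on the opposite strand and had 1 window with a signal value of 2.77 (p-value of 3.6e-05). HSPA13, an HSP70-like ATPase of the ER without the usual client-binding domain, had 3 adjacent windows of 2.97, 2.79 and 2.20 and a separate one of 1.49. The p-value of its strongest window was 2.22e-16, the lowest above 0 among members. HSPA4, an HSP110-type exchange factor, had 2.82 (p-value of 1.43e-12) inside the gene and 1.84 near its start. Its relatives HSPA4L and HSPH1 had 2.30 and 2.09, and 2.38 in a single window.

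HSPA14 encodes an HSP70 that works at the ribosome. Its first identifier (ENSG00000187522) had 9 windows, with 1.58, 2.36, 1.48, 1.62, 1.35, 1.31, 1.46, 2.68 and 1.74 from 5′ to 3′. The second (ENSG00000284024) had 5, with 2.20, 2.43, 1.17, 1.71 and 1.52. In 3 places windows of the identifiers overlapped at an offset of 4 bp, and the values there were 2.36 and 2.20, 2.68 and 2.43, and 1.74 and 1.17. The first identifier was the higher in all 3, by 0.16, 0.25 and 0.57. They are overlapping annotations of 1 locus and not independent evidence, and the first was also at the limit, with at least 3 passing windows left out.

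The housekeeping HSP70 genes of the cytosol, the mitochondria and the ER had strongest windows of 2.36, 2.27 and 1.87, all far under HSPA1A. HSPA8, the constitutive cytosolic HSP70, had 2.36 in the window at its start (the GAACT stretch above) and 0.95 and 1.06 further inside. HSPA9, the mitochondrial HSP70, had 2.27 in the inner window shown above (p-value of 7.92e-13) and 1.91 at its start. Further downstream HSPA9 had 1.58, 1.40 and 1.71, at 29.7%, 38.4% and 38.7% of the gene. HSPA5, the ER chaperone BiP, had 6 windows of 1.04, 0.77, 1.00, 1.87, 0.80 and 0.76 from 3′ to 5′. In score, 1 window stood clear of the rest. Its p-value (0.000162) was higher than those of the windows with 1.04 (8.76e-06) and 1.00 (1.04e-05). HSPA12A, a distant HSP70 relative, had 2.41 and 2.17.

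The 2 cytosolic HSP90 genes differed in score. HSP90AB1, the constitutive form, had 1 window with 2.36 (p-value of 1.58e-07), 40 bp from an annotated start and with the GGACT stretch. HSP90AA1, the inducible form, had 2 adjacent windows with 1.28 and 0.99, and only 1.54% of coding genes had a lower strongest window. The tested windows numbered 41 in HSP90AB1 and 64 in HSP90AA1, as computed from how far each q-value exceeds its p-value.

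The J-domain genes ranged from the second highest to the lowest strongest window of all members. DNAJB9, a co-chaperone of BiP in the ER, had a signal value of 3.12 (p-value of 4.86e-12) at 118 bp from an annotated start, with 1.76 in the next window. DNAJC10, an ER disulfide reductase, had 3 adjacent windows at its start that held 2.14, 2.30 and 2.72. DNAJC3, an ER protein also known as an inhibitor of eIF2α kinases, had a single window of 2.45 at 76 bp from its start. DNAJC16, an ER membrane protein, had 2.50 and 1.78. DNAJB12, another ER membrane protein, had 2.15 and 1.61.

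DNAJC22 had 7 windows of 2.68, 1.84, 1.84, 2.10, 1.84, 2.15 and 1.65. DNAJC7, a co-chaperone that carries clients between HSP70 and HSP90, had 2.45 and 1.96 at its start. The DNAJA genes each had a single window, with 2.24 in DNAJA1 and 2.17 in DNAJA2, both cytosolic, and 2.40 in the mitochondrial DNAJA3 (p-value of 4.42e-10). DNAJC11, of the mitochondrial inner membrane organizing system, had 2.03, and DNAJC9, a histone chaperone, had 1.95, 1.74 and 1.74.

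Lower values were found in DNAJC21, which acts in ribosome assembly (1.85), in DNAJC14 (1.80 at its start, then 1.70, 1.06 and 1.32) and in DNAJC5, the cysteine string protein (7 windows from 0.95 to 1.80). In DNAJC5 the value of 1.80 occurred both near the start and at 77% of the gene, so its strongest position is a tie.

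DNAJB1, the main inducible HSP40, was the weakest member by its best window although it had 7 windows. Their values were 0.82, 0.90, 1.00, 0.95, 1.03, 0.90 and 1.04, and the last 4 lay side by side at 52 to 202 bp from an annotated start. The lowest p-value was 5.79e-05, and 0.329% of coding genes had a lower strongest window. HSPA1A and DNAJB1, both induced by heat shock, were thus the highest and the lowest of the 42 identifiers.

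The chaperonin genes lay below the median of coding genes throughout. TCP1 had 2.21 (p-value of 5.73e-07) and 1.93 in adjacent windows, and CCT8 had 2.13. CCT6A had 1.74, CCT3 1.64 and 1.52, CCT7 1.59 and 1.32, CCT5 1.47, 1.44 and 1.26, and CCT4 1.37 and 1.15. A low score did not mean a high p-value: that of the stronger CCT3 window was 9.5e-10, below those of TCP1 and CCT8. The mitochondrial chaperonin HSPD1 had, from 3′ to 5′, 0.89, 1.82, 1.5, 1.86 and 1.65, the last at its start.

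BAG4, known as a silencer of death domain receptors, had 9 windows from 1.21 to 2.23, of which 5 lay side by side or nearly so at its 5′ end and 4 further inside. The value of 2.23 occurred both at 0.696% and at 43.6% of BAG4, so its strongest position is a tie. At least 13 of its 42 tested windows passed, so at least 4 were left out, and at least 2 of these had a smaller p-value than any listed one. BAG1 had 1 window of 1.77. BAG3, which links HSP70 to selective autophagy, had 1.20 and 1.49, the second at 96.3% of the gene.

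Windows with a signal value below 1 were more frequent in members than in coding genes. They numbered 12 of 132 (9.09%), beside 2.81% of the windows of all coding genes, and came from 7 genes. DNAJB1 held 4 of them, HSPA5 3, and HSPA8, HSP90AA1, HSPD1, HSPA1B and DNAJC5 held 1 each. Their p-values ran from 7.38e-06 to 0.006187. For comparison, the share was 5.08% in proteasome genes (3 of 59 windows) and 9.52% in ribosomal protein genes (8 of 84). Their relation to transcript abundance was not tested, because the table holds no expression values.

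The strongest window lay toward the 5′ end of the gene in many members. Its median position was 10.2% of the RefSeq gene interval, beside 23.8% in coding genes, and it fell in the first 10% of the gene in 21 of 42 members (50%, background 40.6%). The stretch from 0 to 5% held nearly equal shares, 35.7% of members and 35.9% of coding genes, and the stretch from 5 to 10% held 6 members (14.3%) and 4.69% of coding genes. In the last 10% of the gene the shares were 7.14% and 9.58%. Proteasome genes had a median position of 3.75% and ribosomal protein genes one of 53.0%, so the medians of these groups lay far apart.

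Where annotated starts could be used, 17 of 37 members had the strongest window within 500 bp of one (45.9%, background 38.0%). These positions include introns, and a gene interval runs from its outermost start. The windows of DNAJB1 and HSP90AA1 at 92.2% and 90.6% of the interval lay only 52 and 780 bp from an inner start. The windows of DNAJB12 (82.8%), CCT7 (72.1%), DNAJC11 (70.7%) and BAG3 (96.3%) were far from any annotated start, at 13488 bp or more. Whether a window lies in a 5′ UTR, coding sequence or 3′ UTR was not analysed here.

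**Figure D4:**
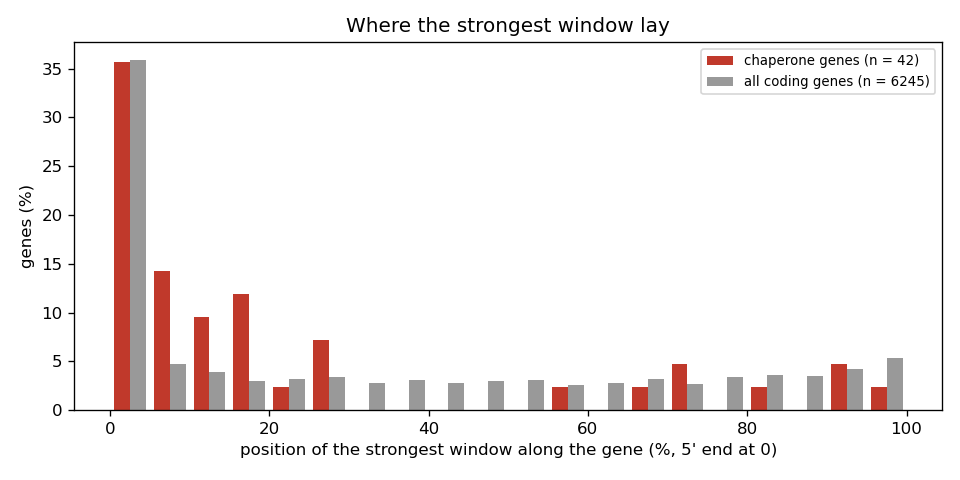
Share of genes (y axis, %) by the position of the strongest window along the gene (x axis, % from the 5′ end, bins of 5), for the 42 chaperone identifiers and for 6245 coding genes. Both groups have like shares in the first bin (35.7% and 35.9%), and the members exceed the coding genes from 5% to 20%. The 2 HSPA14 identifiers, overlapping annotations of 1 locus, both count in that range, at 15.3%.

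Partner genes of the chaperone system, taken as a fixed list of 37, had windows in 18 (48.6%, beside 31.8% of coding genes), with 51 windows and a median strongest value of 2.02. None of the heat shock transcription factors HSF1, HSF2 and HSF4 was listed, nor was any of 6 prefoldin genes, which hand unfolded actin and tubulin to the CCT ring. Of 7 HSP70 co-chaperones 4 were listed. STUB1, the ubiquitin ligase that marks chaperone clients for degradation, had 5 windows and a strongest value of 3.12 with a p-value listed as 0. The mitochondrial exchange factors GRPEL1 and GRPEL2 had 2.60 and 2.31, and HYOU1, an HSP110 relative of the ER, had 1.93.

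Of 10 HSP90 co-chaperones 6 were listed, with a median strongest value of 1.71. FKBP4 had the highest (2.23) and CDC37, which brings kinases to HSP90, the lowest (1.06), while STIP1, which joins HSP70 to HSP90, had 1.86 (p-value of 3.15e-11). Of 11 chaperones and proteases of the ER and mitochondria 8 were listed, from 0.92 in PDIA4 to 2.50 in PDIA6, with 2.34 in CANX, 2.27 in TRAP1 and 2.07 in CALR. P4HB, LONP1 and CLPP had no window.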

How the data were processed

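RIP-seq libraries (2 IP-YTHDF1, 2 Input) were grouped by GEO's labels. The submitters' processing notes name STAR 2.7.3a and GRCh38, and the peak caller is not given in the sources used here. A legend of the study speaks of the union of replicates, with no procedure, so a window may have come from 1 replicate. The deposited table holds 26820 rows, 1 of them an exact repeat that was dropped. The signal value and rank are treated as a score given by the authors, and p-values and q-values are used as deposited. Columns of single libraries numbered 0, so depth, replicate spread and tests were not available. Starts are printed from 1.

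The q-values were found to be adjusted by Benjamini-Hochberg within each gene. Dividing them by the p-values therefore gave an estimate of how many windows of a gene had been tested. The smallest number that fitted the listed windows was taken, and 47 genes gave none. A self-test of this step used artificial genes. The number was recovered in 94.3% of 704 with all windows listed and in 92.7% of 796 with more than listed. Passing windows of the artificial genes had p-values far below those of the others. Listed windows include p-values between these, such as 0.01188 in BAG4, which the self-test did not cover. Recovery in the genes of the table itself was not tested, and the numbers of tested and left-out windows rest on this step. Positions are relative to RefSeq gene intervals of GRCh38.p14, from the 5′ end. Of 6674 coding symbols, 6370 matched RefSeq (95.4%). The strongest window of a gene is the one with the highest signal value, with ties broken by p-value. Proteasome and ribosomal protein genes were chosen by symbol, without S6 kinase and readthrough genes.

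All listed members are named. All windows are given for the 12 strongest identifiers and for the major chaperones. The members and lists were chosen with earlier results of these data known. Alternatives were limits on q-value and signal value, adjustments over all windows, and leaving out shared windows or genes. Scripts ran in Python 3.11.15 with matplotlib 3.10.9, SciPy 1.17.1, NumPy 2.4.6 and pandas 2.3.3.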

Additional observations from a re-analysis of the deposited data

How the results depend on the processing

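The authors' list gave 42 chaperone identifiers, 132 windows, a median strongest signal value of 2.22 and a share of 46.6%. A signal value of at least 2 left 27 identifiers, 40 windows, a median of 2.40 and a share of 29.5% (coding genes 22%). A q-value of at most 0.001 left 56 windows, a median of 2.36 and a share of 36.4% (coding genes 21.2%). A Bonferroni limit over an inferred 319705 tested windows left 16 identifiers, 23 windows, a median of 2.46 and a share of 17.0% (coding genes 12.5%). That total leaves out 47 genes for which no number of tested windows was obtained. The median was 2.17 both without windows shared with another gene, which removed HSPA1B, and without the 3 genes at the limit of 9 windows. The mean position of all windows in place of the strongest had a median of 15.4% (coding genes 34.8%). The share of members stayed above that of coding genes under each of these limits. Leaving out 1 HSPA14 identifier or the pair HSPA1A and HSPA1B, chosen after seeing the data, gave medians of 2.21 and 2.22. Placement by transcript region and motif searches in extended windows were planned and not run, because no exon annotation or genome was used here. No paired analysis was possible because each window had a single value and none per replicate. Library depth is unknown, so how far it limits these counts cannot be said.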

Other observations

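Pseudogenes and antisense genes that carry a chaperone symbol were listed with 1 window each. HSPA8P9, a processed pseudogene of HSPA8, had a signal value of 3.11 (p-value of 0.000506), above the 2.36 of HSPA8 itself. HSP90AA2P, a processed pseudogene related to HSP90AA1, had 2.83 (p-value of 4.4e-05), above the 1.28 of HSP90AA1. HSPA8P8 had 1.87 and CCT6P1 2.37. The antisense lncRNA DNAJC9-AS1 had 2.09. Reads from a processed pseudogene and its parent can be alike, and how such reads were assigned is not given in the sources used here.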
